A study of Enchytraeus crypticus with 30 samples.

Results

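The probes raised by both nickel forms in Enchytraeus crypticus are 89 of the 24653 probes that were measured above background on every array, out of 43750 probes in all. They were chosen by their measured values: a probe was taken when its mean log2 signal exceeded that of the same-day control by 0.8 or more in each of the 4 EC50 comparisons, which are Ni-NPs EC50 and NiNO3 EC50 at day 3 and at day 7. These 4 comparisons are therefore a description of the members and not a result about them. The animals were adults with a developed clitellum, exposed over 3 or 7 days to natural soil of a standard type that held nickel nanoparticles (Ni-NPs) or a nickel salt (NiNO3), each at the concentration that lowers reproduction by 20% (EC20) or by 50% (EC50). Controls were kept in the same soil without added nickel for the same time. Each of the 10 conditions had 3 biological replicates, each replicate was a pool of 20 whole animals, and each pool was hybridized to 1 array with 1 dye, so 30 arrays were used.

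Enchytraeids are small soil worms, relatives of earthworms, whose reproduction is a standard measure of soil toxicity. A nickel salt brings dissolved nickel ions to the soil water, while metal nanoparticles act both as particles and as a slow source of ions. In animals in general, nickel ions bind to thiol groups and to sites meant for other metals, and cells exposed to metals are known to raise genes of metal binding, stress protection and transport. The names of the probes here are those of an assembly of sequence reads: a contig number where several reads were joined, or a read name that starts with GYUW2K where a single read stood alone. The files pair neither a gene nor a function with any of them, and give no probe sequence, so no role is given for a member and the labelled tissue could not be checked against marker genes. Of the 89 members, 47 are contigs and 42 single reads, which makes 52.8% contigs, against 50.9% of all tested probes.

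All levels below are log2 signals relative to the median of the array over the tested probes, so that 1 unit is a doubling and 0 the median probe. Levels are compared only within a probe, since the brightness of a spot also depends on its sequence. A higher signal from whole animals can come from more RNA per cell or from more cells of a type, and these cannot be told apart.

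The members fell into kinds by how their control arrays lay. In 49 members all 12 EC50 arrays were above all control arrays of their day, as in 0.86% of all tested probes (212 of 24653). In 26 other members the 3 control arrays of each day were spread over more than 1.5 log2 units at both days, as in 2.49% of tested probes (614). The remaining 14 lay between these. The median control spread of the 49 members was 0.59 at day 3 and 0.53 at day 7, near the medians of all tested probes, 0.60 and 0.61. In the 26 scattered members it was 3.15 and 3.83. These kinds were set after the values had been seen and carry no test.

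The strongest of the 49 members was GYUW2K402HVQN1, a single-read probe with the highest mean EC50 difference of all 89, 3.31. At day 3 its level was 4.45, 3.92 and 4.07 in the 3 Ni-NPs EC50 arrays, 4.08, 4.34 and 5.19 in NiNO3 EC50, and 1.35, 1.48 and 1.45 in the control. At day 7 it was 4.44, 4.54 and 4.60 in Ni-NPs EC50, 5.73, 5.85 and 4.98 in NiNO3 EC50, and 1.09, 1.62 and 1.24 in the control. All EC50 arrays of this probe lay at least 2.44 above the highest control array of their day. The mean differences were 2.72 and 3.21 for Ni-NPs EC50 at days 3 and 7, and 3.11 and 4.20 for NiNO3 EC50, each with a standard error of 0.42 (n = 3 against 3). The largest of these is an 18.4-fold difference. Standard errors here and below come from the limma fit, which pools the spread within all 10 conditions, and not from the compared arrays alone. In the EC20 arrays, which the choice used only in the detection filter, the level was 3.44, 3.72 and 2.61 in Ni-NPs and 4.69, 2.99 and 4.33 in NiNO3 at day 3. At day 7 it was 2.70, 2.14 and 3.46 in Ni-NPs and 3.84, 4.90 and 5.36 in NiNO3. The 12 EC20 arrays were thus also above all 6 control arrays, and at day 7 those of Ni-NPs lay below those of NiNO3 without overlap.

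Contig01277 was also separate from its controls in every treated array. It was at 3.90, 3.29 and 3.61 in Ni-NPs EC50 and at 3.72, 3.67 and 3.52 in NiNO3 EC50 at day 3, against 0.45, 0.06 and 0.62 in the control. At day 7 it was at 2.55, 2.87 and 2.74 in Ni-NPs EC50 and at 3.14, 3.11 and 3.09 in NiNO3 EC50, against 0.70, 0.12 and 0.10 in the control. The nanoparticles at EC20 gave 2.58, 2.79 and 2.49 at day 3 and 1.51, 1.41 and 1.97 at day 7. The salt at EC20 gave 4.38, 4.26 and 3.13 at day 3 and 3.71, 2.66 and 2.80 at day 7. For this probe the EC20 arrays of the salt reached the level of the EC50 arrays, while those of Ni-NPs stayed below all EC50 arrays of their day.

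GYUW2K402JE6WU gave dim spots in the control. At day 3 it was at 0.52, -0.15 and 0.50 in Ni-NPs EC50 and at 0.39, -0.0019 and 0.79 in NiNO3 EC50, against -2.15, -2.44 and -2.48 in the control. At day 7 none of the 3 control arrays was well above background, so that only a bound can be given: the level was at least 6.10-fold higher in Ni-NPs EC50 and at least 10.4-fold higher in NiNO3 EC50. These bounds set the treated group's mean against the lowest signal well above background on each control array, or the probe's own where that was higher. In the EC20 arrays of day 7 it was -0.46, -0.72 and -1.56 with Ni-NPs and 1.39, 0.34 and 0.15 with NiNO3, again without overlap. A control group with no array well above background was found for 8 of the 89 members. In the other 7 (contig20977, GYUW2K401DKQUY, GYUW2K401DG07H, GYUW2K402H1UL1, contig02388, contig13677 and contig19588) the bounds for the EC50 groups concerned ran from 1.05-fold to 4.65-fold. In Ni-NPs EC50 at day 3, only 1 array of GYUW2K401DKQUY and 2 each of contig13677 and GYUW2K402H1UL1 were well above background. Their folds in that group are not minima.

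**Figure D1:**
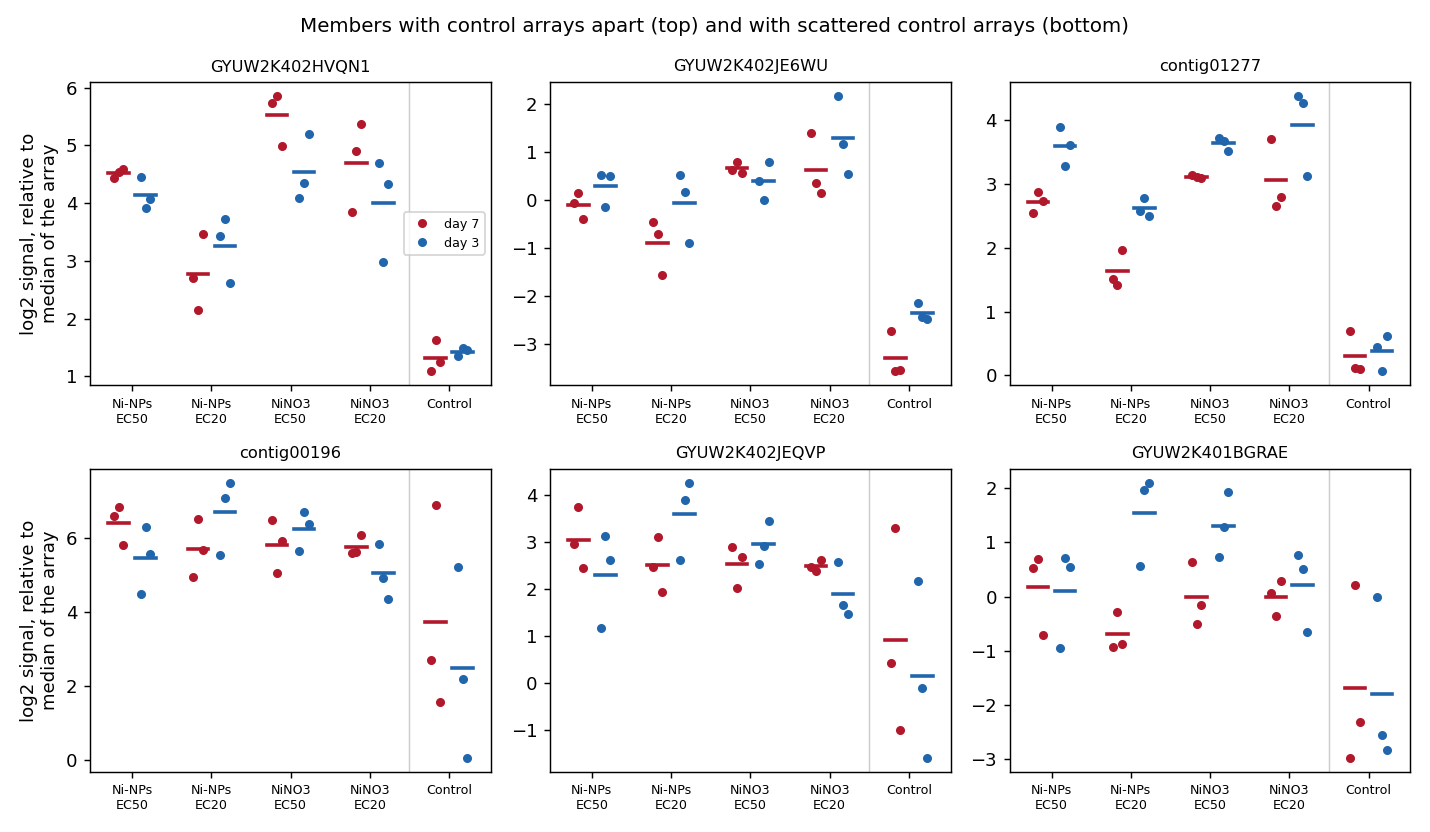
Log2 signal relative to the median of the array (vertical axis) of 6 members in the treatments and the control (horizontal axis), with 1 point per array, a line at the mean of 3 arrays, day 7 in red and day 3 in blue. In the top row the control points lie below all treated points; in the bottom row 1 control point of each day, replicate 2 at day 7 and replicate 1 at day 3, lies at the level of the treated points.

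The other strong members of this kind had like values. In contig24978 the 12 EC50 arrays ran between 1.57 and 2.77 with a median of 1.96, and the control arrays between -0.88 and -0.15. Its EC20 arrays reached 0.74 to 2.21 with Ni-NPs and 1.55 to 2.23 with NiNO3, with no overlap between the 24 treated and the 6 control arrays. GYUW2K402IP9J9 ran from 1.92 to 2.79 over the EC50 arrays and from -0.62 to 0.13 over the control arrays, while 1 of its Ni-NPs EC20 arrays of day 7, at 0.12, lay within the control range. GYUW2K401BYI0P ran from 1.87 to 3.81 over the EC50 arrays and from -0.50 to 0.19 over the control arrays. In GYUW2K401BP9T5 the EC50 arrays lay between 0.84 and 2.69 and the control arrays between -2.12 and -0.03. In contig05362 they lay between 0.24 and 1.39 and the control arrays between -1.78 and -1.01. Contig19147 was, at EC50, on average higher with the nanoparticles than with the salt: it was at 5.30 to 5.88 in the 6 Ni-NPs EC50 arrays and at 4.44 to 5.36 in the 6 NiNO3 EC50 arrays, against 1.90 to 3.62 in the control. The member with the brightest spots in the control, contig10742, was at 9.38 to 10.33 over the EC50 arrays and at 7.68 to 8.46 in the control. The one with the dimmest, contig13677, was at -3.02 to -1.67 over the EC50 arrays and at -4.12 to -3.35 in the control, where no array was well above background. No member spot was saturated.

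Over all 24 treated arrays, EC20 included, 18 of the 49 members had every treated array above the control arrays of its day, as had 22 of all tested probes. Separate EC50 arrays defined the 49, and the choice used the same control arrays, so nothing is read from these counts. Among these 18 were 7 of the strong members, GYUW2K402HVQN1, GYUW2K402JE6WU, contig01277, GYUW2K401BYI0P, contig24978, contig05362 and contig19147, and the bright contig10742. The others were contig05080, contig05082, contig05364, contig09485, contig12889, GYUW2K401BAFK5, GYUW2K401BO806, GYUW2K401EHL13, GYUW2K402GTVLT and GYUW2K402HTBYM.

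Some members may stand for the same transcript, which cannot be checked without their sequences. Over the 30 arrays, GYUW2K401BAFK5, GYUW2K402HTBYM and GYUW2K402GTVLT correlated pairwise at r = 0.987 to 0.989, GYUW2K401E0409 and GYUW2K402I31J1 at r = 0.990, GYUW2K401CTM6K and GYUW2K402HVE38 at r = 0.996, and contig14006 and contig16807 at r = 0.982. Contigs with neighbouring numbers also occurred, contig05362 with contig05364 (r = 0.98), and contig05080, contig05081 and contig05082 (r = 0.82 and 0.74 between neighbours). Such pairs share arrays, and their values are not independent of each other.

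The 26 scattered members looked different. Contig00196, the strongest of them with a mean EC50 difference of 2.88, was at 4.48, 6.31 and 5.56 in Ni-NPs EC50 and 5.65, 6.71 and 6.38 in NiNO3 EC50 at day 3, against 5.23, 2.17 and 0.04 in control replicates 1, 2 and 3. At day 7 it was at 6.60, 6.84 and 5.81 in Ni-NPs EC50 and 6.50, 5.05 and 5.93 in NiNO3 EC50, against 2.69, 6.90 and 1.57 in the control replicates. Control replicate 1 at day 3 was thus among the EC50 arrays of its day and control replicate 2 at day 7 above all of them, while the other 4 control arrays were far below. The mean difference of 2.97 for Ni-NPs EC50 at day 3 had a standard error of 1.04 from the pooled fit. The 2 groups themselves differed in spread: the control mean of that day was 2.48 ± 2.61 (SD, n = 3), and the SD of Ni-NPs EC50 was 0.92.

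The same 2 control arrays were the highest of their day in 24 of the 26 scattered members. Among all 614 tested probes with such a spread of the controls this order was found in 130, or 21.2%. The 26 are among the 614, were chosen with these control values and share arrays, so the shares are a description only. The EC50 arrays of GYUW2K402JEQVP ran from 1.17 to 3.75, against 2.17 in control replicate 1 at day 3, 3.29 in control replicate 2 at day 7 and -1.59 to 0.43 in the other control arrays. The EC50 arrays of GYUW2K401BGRAE ran from -0.96 to 1.92, against -0.01 and 0.21 in the same 2 control arrays and -2.98 to -2.31 in the other 4. In both probes 2 control arrays overlapped the treated arrays and 4 did not.

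Over the 26 scattered members, the median level ran from -0.48 to 3.07 on the 24 treated arrays. In the control it was 1.47, -1.03 and -1.83 in replicates 1, 2 and 3 of day 3, and -0.85, 0.74 and -2.51 in those of day 7. The 49 members with separate controls had median levels between 0.66 and 2.24 on the treated arrays and between -0.09 and 0.32 on the 6 control arrays. Since that kind was set by control arrays below the EC50 arrays of their day, nothing about the 2 control arrays is read from this. Control replicates 1 and 2 of day 3 lay on the same slide and were scanned on the same day, and the 3 control arrays of day 7 lay on 3 slides scanned on 1 day. The share of probes well above background on the 2 high control arrays was 58.9% and 55.8%, against 52.0% to 64.6% on the other 4. Whether the state of these 2 pools accounts for the pattern was not tested. Without both arrays the same choice gives 176 probes, which include 83 of the 89 members. Against the highest control array of the day, in place of the mean of 3, it gives 23 probes. All of them are members by construction, since the highest array is never below the mean.

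**Figure D2:**
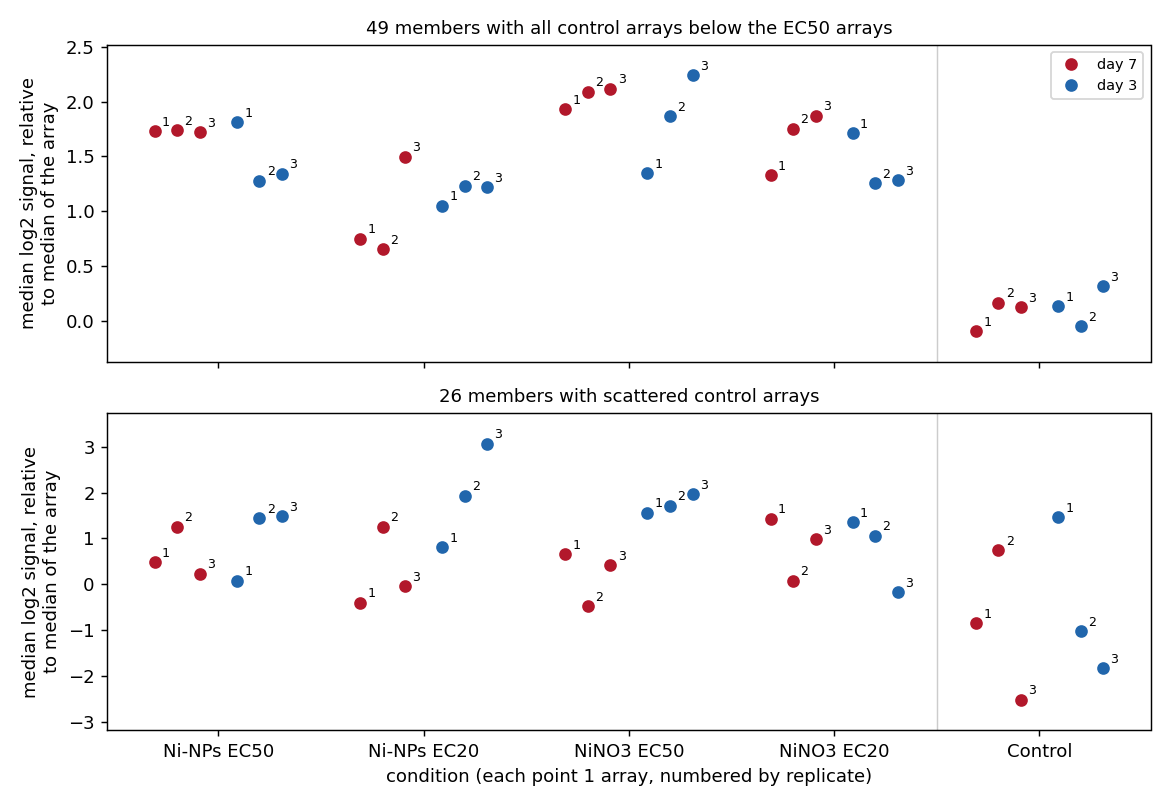
Median log2 signal relative to the median of the array (vertical axis) over the 49 members with separate controls (top) and over the 26 scattered members (bottom) on each of the 30 arrays, numbered by replicate, with day 7 in red and day 3 in blue. In the top panel all 6 control arrays are at 0.32 or lower and all treated arrays at 0.66 or higher, and in the bottom panel control replicate 2 at day 7 and replicate 1 at day 3 are at 0.74 and 1.47, among the treated arrays.

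The treated arrays of the scattered members also varied. The median spread over 3 arrays was 1.45 in Ni-NPs EC50 and 0.71 in NiNO3 EC50 at day 3, and 1.36 and 1.17 at day 7. In the 49 members the same spreads were 0.55 and 0.52 at day 3, and 0.40 and 0.34 at day 7, and over all tested probes 0.36 and 0.59, and 0.53 and 0.36. At EC20 the median spread of the scattered members was 1.43 in Ni-NPs EC20 and 1.47 in NiNO3 EC20 at day 3, and 1.56 and 1.39 at day 7. In the 49 members it was 0.62 and 0.81 at day 3, and 1.03 and 0.82 at day 7, and over all tested probes 0.61 and 0.61, and 0.82 and 0.86. Across the 12 EC20 arrays, taken as deviations from the mean of the condition, pairs of scattered members had a median correlation of 0.63, pairs among the 49 of 0.38, and pairs of 1 scattered member and 1 of the 49 of 0.0032. These pairs share arrays and probes, and the correlations are given as a description.

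The most variable member was contig26420. It ran from -3.35 to 6.59 over the 12 EC50 arrays, from -3.36 to 5.55 over the 12 EC20 arrays and from -2.56 to 4.99 over the 6 control arrays. At day 7 each of the 5 conditions had arrays above and below 0, and it was at 5.17, -3.35 and 4.43 in Ni-NPs EC50, 4.94, 3.77 and -1.35 in NiNO3 EC50, and 4.99, -0.75 and -2.56 in the control. At day 3 this was so for NiNO3 EC20, while the arrays of the other conditions were at 1.97 or higher. The smallest of its 4 mean EC50 differences was 1.52, and treated and control arrays overlapped at both days. Contig18372, also scattered, ran from -2.76 to 0.42 over the EC50 arrays and from -3.55 to -0.36 over the control arrays.

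In the EC50 comparisons that chose the members, the median difference of the 89 was 1.36 for Ni-NPs and 1.67 for NiNO3 at day 3, and 1.32 and 1.49 at day 7, which are 2.57-, 3.19-, 2.50- and 2.82-fold. The threshold of limma (adjusted p under 0.05, raised) was passed by 24 and 23 members for Ni-NPs EC50 at days 3 and 7, and by 36 and 43 for NiNO3 EC50. Over all tested probes it was passed by 0.118% and 0.154% for Ni-NPs EC50 and by 0.341% and 0.681% for NiNO3 EC50; since these comparisons chose the members, nothing is read from the counts. Just inside the limit of 0.8, the smallest of the 4 differences was 0.80 for contig18023, 0.81 for contig13509 and 0.82 for GYUW2K401BD0TN. Just outside it were GYUW2K402FND9S (0.80, below the limit before rounding), contig13929 (0.79) and contig12659 (0.79).

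**Figure D3:**
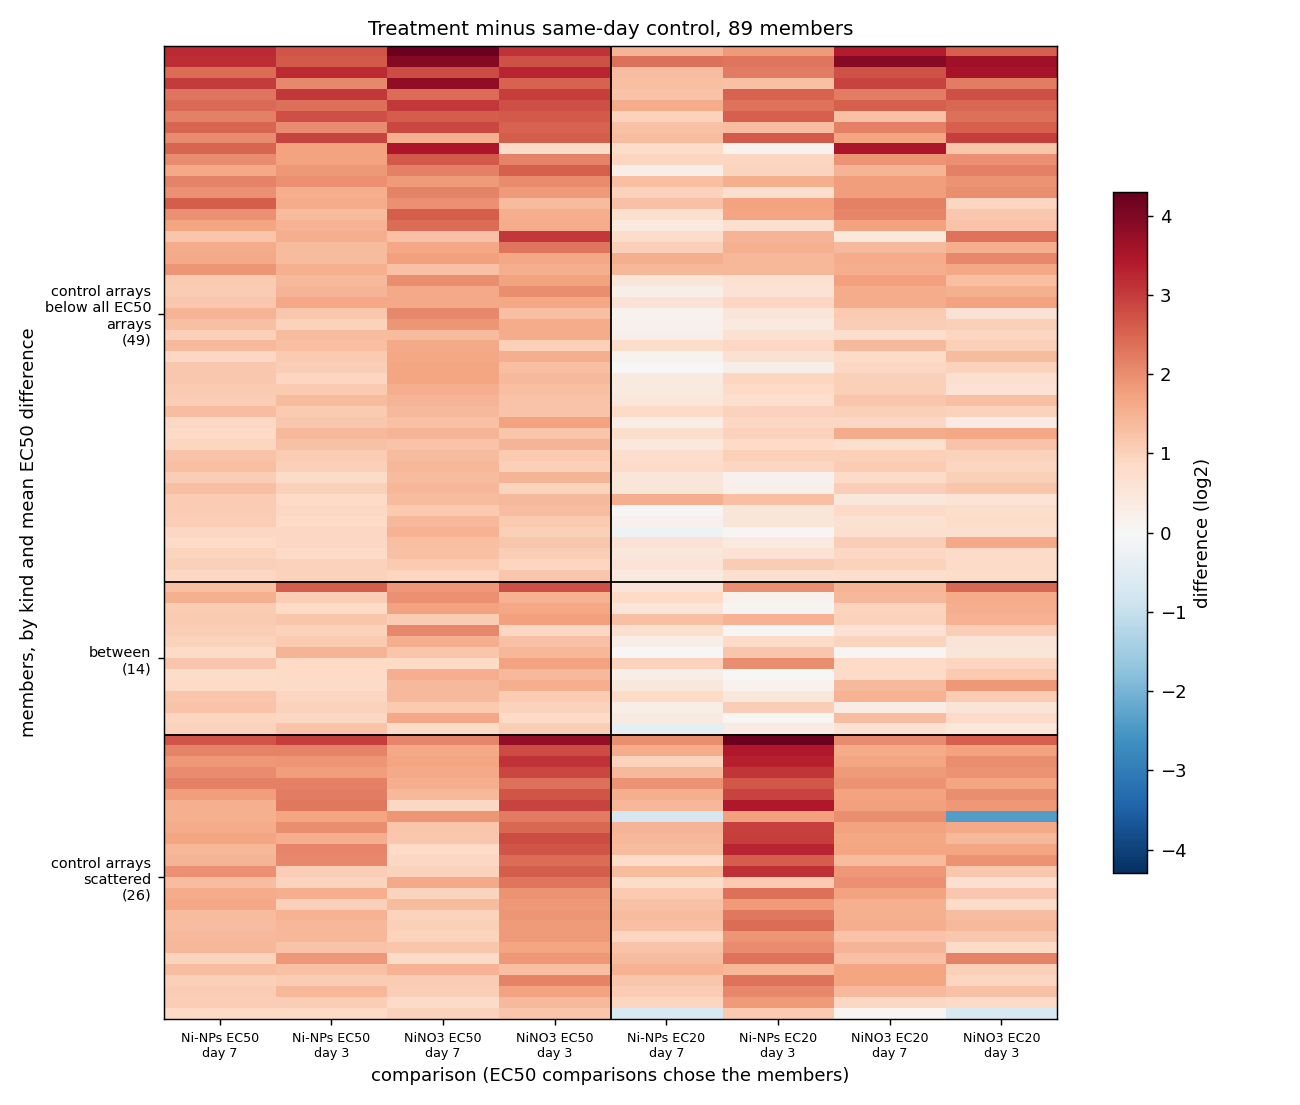
Difference from the same-day control (log2, colour) of the 89 members (rows, grouped by the 3 kinds and ordered by mean EC50 difference) in the 8 comparisons (columns), with the 4 EC50 comparisons that chose the members on the left. The Ni-NPs EC20 column of day 7 is paler than that of NiNO3 EC20 in the upper block of 49 members, with medians of 0.68 and 1.25, and the Ni-NPs EC20 column of day 3 is darkest in the lower block of 26, with a median of 2.38.

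The choice used the EC20 arrays only in the detection filter, but their comparisons with the control share the control arrays with it. The values are therefore given side by side and no support is drawn from them. The median difference from the control was 1.19 for Ni-NPs EC20 and 1.24 for NiNO3 EC20 at day 3, and 0.81 and 1.43 at day 7, while the medians of all tested probes were between -0.06 and -0.0021. Without control replicate 3 of day 7 the medians of day 7 were 0.50 for Ni-NPs EC20 and 0.95 for NiNO3 EC20. With the dim control groups of the 8 members at their bounds, the medians were 1.14 for Ni-NPs EC20 and 1.19 for NiNO3 EC20 at day 3, and 0.81 and 1.41 at day 7. A difference of 0.8 or more was reached by 62 members for Ni-NPs EC20 at day 3 (2.9% of all tested probes), 47 at day 7 (2.77%), 72 for NiNO3 EC20 at day 3 (2.27%) and 77 at day 7 (3.03%). It was reached in all 4 by 41 members, against 0.219% of tested probes. With limma, 5 members passed the threshold for Ni-NPs EC20 at day 3 (0.0446% of tested probes raised), 2 at day 7 (0.00811%), 27 for NiNO3 EC20 at day 3 (0.174%) and 25 at day 7 (0.211%). None of these was a scattered member. That kind was set by a wide spread of the control arrays used in these tests, which widens the standard error. Nothing is therefore read from its absence. The counts depended on single arrays. For Ni-NPs EC20 at day 3 the count was 17 without control replicate 1 and 5 with it. At day 7 it was 0 without any 1 of the 3 control arrays, 0 without Ni-NPs EC20 replicate 1 or 3 and 4 without replicate 2. For NiNO3 EC20 at day 3 it was 17 without control replicate 1, 15 without control replicate 2 and 14 without NiNO3 EC20 replicate 1, against 27.

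The highest mean differences over the 4 EC20 comparisons were those of GYUW2K402JE6WU (at least 2.77), contig00196 (2.71) and contig01277 (2.47). The lowest were taken among the 81 members with controls well above background on at least 1 array of each day. They were those of contig18372 (-0.02), contig26420 (0.16) and GYUW2K402F9E4K (0.31). Contig26420 reached -2.39 in NiNO3 EC20 at day 3, where its arrays were at -0.47, -3.36 and 5.19. GYUW2K401DG07H, whose mean of Ni-NPs EC20 at day 7 was below the lowest signal well above background, has no such value. It was dim throughout, at -4.63 to -1.98 over the 12 EC20 arrays and at -3.47 to -2.83 in the control.

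Whether the 2 forms of nickel differed can be asked of the EC20 arrays alone, which need no control. The choice used these arrays only in the detection filter. The forms were matched by their effect on reproduction, and the study lists a far higher nickel concentration at EC20 for Ni-NPs than for NiNO3. Form and amount of added nickel therefore cannot be told apart. At day 7, 80 of the 89 members were lower in Ni-NPs EC20 than in NiNO3 EC20 and 9 were higher, with a median difference of -0.52, while 46.7% of all tested probes were lower and their median was 0.03. Limma called 1 member at an adjusted p under 0.05, contig02388, against 0.0608% of tested probes in either direction. At an unadjusted p under 0.05, 29 members were lower and 1 was higher, against 7.99% of tested probes in both directions together. The 3 Ni-NPs arrays lay below the 3 NiNO3 arrays without overlap in 19 members (2.35% of tested probes) and above them in 1 (4.95%).

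Of the 49 members with separate controls, 47 were lower with Ni-NPs at day 7, with a median difference of -0.67, and of the 26 scattered members 22 were, with a median of -0.29. Under the other scalings, background correction and filters that kept all 89 members, between 79 and 82 were lower, and with 1 of the 6 EC20 arrays of the day left out between 70 and 83 were. The median over the 89 was -0.34 without replicate 3 of NiNO3 EC20. Without replicate 1 of Ni-NPs EC20 the count of lower scattered members was 14 of 26, with a median of -0.02, while 46 of the 49 others were lower. With 1 of the other 5 arrays left out that median ran from -0.63 to -0.14. Of the arrays at day 7, replicates 2 and 3 of Ni-NPs EC20 and replicate 3 of NiNO3 EC20 were scanned on another day than the other 3. Within these days 81 and 79 members were lower with Ni-NPs. Members that share a pool move together, so the 89 are not independent observations of this difference.

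**Figure D4:**
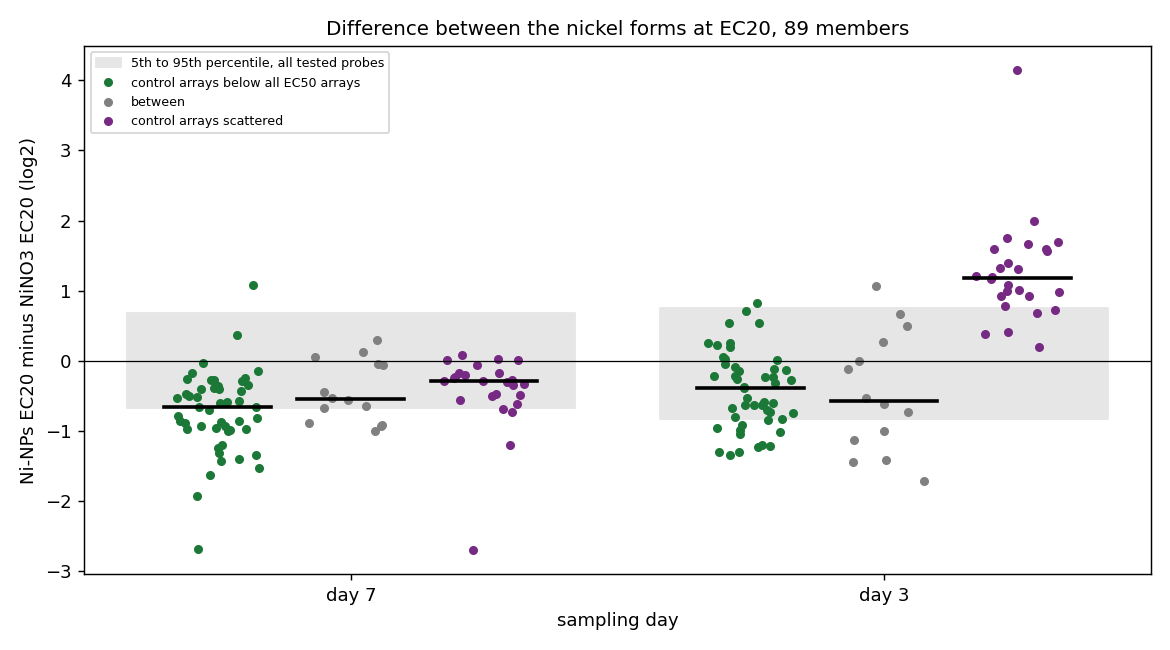
Difference between Ni-NPs EC20 and NiNO3 EC20 (log2, vertical axis) at day 7 and at day 3 (horizontal axis) for the 89 members, coloured by kind with a bar at each median, over a grey band from the 5th to the 95th percentile of all tested probes. At day 7 most members of each kind lie below 0, and at day 3 all 26 scattered members lie above 0 while 38 of the 49 members with separate controls lie below it.

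At day 3 the kinds went apart. The median over the 89 members was -0.11, with 47 members lower in Ni-NPs EC20 and 42 higher, and with the SVCD normalization, a between-array scaling of the study that moved the median of all probes to 0.29, it was 0.19. Of the 49 members with separate controls 38 were lower, with a median of -0.39, against 27 with a median of -0.09 under SVCD normalization. All 26 scattered members were higher, with a median of 1.18, against 1.49 under SVCD normalization. Limma called no member and no other probe (0% of tested probes). At an unadjusted p under 0.05, 21 members were lower and 1 was higher, against 8.96% of tested probes, and the other test of the methods, with the variance of each probe by itself, also called none. Without replicate 3 of NiNO3 EC20 limma called 3 members. Ni-NPs arrays below NiNO3 arrays without overlap were found for 19 members (6.54%), and above them for 11 (5.38%). The median level of the scattered members was 0.81, 1.93 and 3.07 in replicates 1, 2 and 3 of Ni-NPs EC20, and 1.35, 1.06 and -0.17 in those of NiNO3 EC20. Replicate 1 of Ni-NPs EC20 was scanned on the same day as the NiNO3 EC20 arrays, and replicates 2 and 3 each on another day. Within the shared day, with 1 Ni-NPs array, 58 of the 89 members were lower with Ni-NPs and 31 higher, with a median of -0.257. The scattered median of that array, 0.81, was within the range of the NiNO3 EC20 arrays, -0.17 to 1.35. With scan day as a block, fitted over the arrays of all conditions, all 26 scattered members were higher. How far the scan day accounts for the level of replicates 2 and 3 was not tested. Replicate 3 of Ni-NPs EC20 was also the array with the largest share of probes well above background, 76.3%. Without it 25 of the 26 scattered members were higher, with a median of 0.91, and without replicate 3 of NiNO3 EC20, also with 25 higher, the median was 0.75. The median over the 89 ran from -0.23 to 0.04 with 1 array left out: it was above 0 without replicate 1 of NiNO3 EC20 (0.04) or replicate 1 of Ni-NPs EC20 (0.01). A test of whether the difference between the forms changed between the days found no member past the threshold (smallest adjusted p = 0.801 with limma, 7 members at an unadjusted p under 0.05, against 5.86% of tested probes).

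The member that passed the test between the forms at day 7, contig02388, was at -3.45, -2.74 and -3.42 in Ni-NPs EC20, where 1 of the 3 arrays was well above background, and at 0.14, -0.94 and -0.76 in NiNO3 EC20, where all 3 were. All arrays of the salt were above all arrays of the nanoparticles. The difference was -2.68 with a standard error of 0.38 (limma adjusted p = 0.00674), and rests on 2 Ni-NPs arrays that were not well above background. Over the alternatives its adjusted p ran from 0.00158 to 1: it was 0.0145 to 0.0395 with 1 of the 6 arrays left out, 0.171 with a normexp background correction, and 1 where only these 6 arrays entered the fit. At EC50 this probe reached -1.68, -1.05 and -1.73 with Ni-NPs and -0.47, -0.46 and -0.60 with NiNO3 at day 7, against -3.26, -4.23 and -4.49 in the control. At day 3 NiNO3 EC50 was at -2.49, -2.64 and -2.15. The difference of GYUW2K402HVQN1, -1.93 with a standard error of 0.42, did not pass the threshold (limma adjusted p = 0.0831), nor did that of contig01277, -1.43 with a standard error of 0.29 (limma adjusted p = 0.0617).

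The change between the days was likewise compared within each form at EC20. For NiNO3 EC20, 51 members were higher at day 7 than at day 3 and 38 lower, with a median of 0.18 (0.51 under SVCD normalization, where the median of all probes was 0.31), and limma called 3 members, against 0.548% of tested probes. With 1 of the 6 arrays left out the median ran from -0.0023, without replicate 3 of day 3, to 0.35, without replicate 1 of day 3. For Ni-NPs EC20, 16 were higher at day 7 and 73 lower, with a median of -0.41 against 0.02 over all tested probes, of which 47.5% were lower. Of the 26 scattered members 25 were lower, with a median of -1.07, and of the 49 members 39 were, with a median of -0.31. With 1 of the 6 arrays left out the median over the 89 ran from -0.59 to -0.31. Without replicate 1 of day 7, 61 of the 89 were lower. Within the scan days that held both groups, 69 and 63 were lower. Limma called no member, against 0.0892% of tested probes. At an unadjusted p under 0.05, 3 members were higher and 15 lower, against 11.4%, and the other test of the methods called none.

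The 3 members called for NiNO3 EC20 were all lower at day 7. Contig00985 was at 0.06, 0.19 and 0.99 at day 7 and at 2.40, 2.08 and 1.69 at day 3, a difference of -1.65 (standard error 0.32, limma adjusted p = 0.0183), while its control arrays were at -0.18, -0.02 and 0.13 at day 7 and at 0.23, -0.59 and -0.42 at day 3. The fall between the days in the salt was thus not seen in the control of this probe. GYUW2K401DCX9F was at -0.78, -0.12 and -0.44 at day 7 and at 0.81, 0.99 and 0.89 at day 3, a difference of -1.35 (standard error 0.25, limma adjusted p = 0.0129). Its control arrays were lower at day 7 as well, at -0.99, -1.87 and -1.63 against -0.21, -0.50 and -0.17 at day 3. GYUW2K402HSE01 was at 0.86, 0.32 and 1.0 at day 7 and at 2.25, 2.01 and 1.94 at day 3, a difference of -1.34 (standard error 0.29, limma adjusted p = 0.0326). Its control arrays were at 0.01, -0.32 and -0.40 at day 7 and at 0.16, 0.36 and 0.95 at day 3. All 3 calls were lost without NiNO3 EC20 replicate 2 of day 3, at limma adjusted p-values of 0.0972 for contig00985, 0.0852 for GYUW2K401DCX9F and 0.132 for GYUW2K402HSE01. Without replicate 1 of day 3 the call was lost for contig00985 (0.121) and GYUW2K402HSE01 (0.156). The same was true without replicate 2 of day 7 (0.0913 and 0.148), and without replicate 3 of day 7 it was lost for GYUW2K401DCX9F (0.0574) and GYUW2K402HSE01 (0.0638). Over all alternatives the adjusted p ran from 0.00265 to 0.751 for contig00985, 0.0027 to 0.751 for GYUW2K401DCX9F and 0.0105 to 0.751 for GYUW2K402HSE01. The count of calls in this comparison was 9 without NiNO3 EC20 replicate 1 of day 7 and 7 without replicate 3 of day 3.

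**Figure D5:**
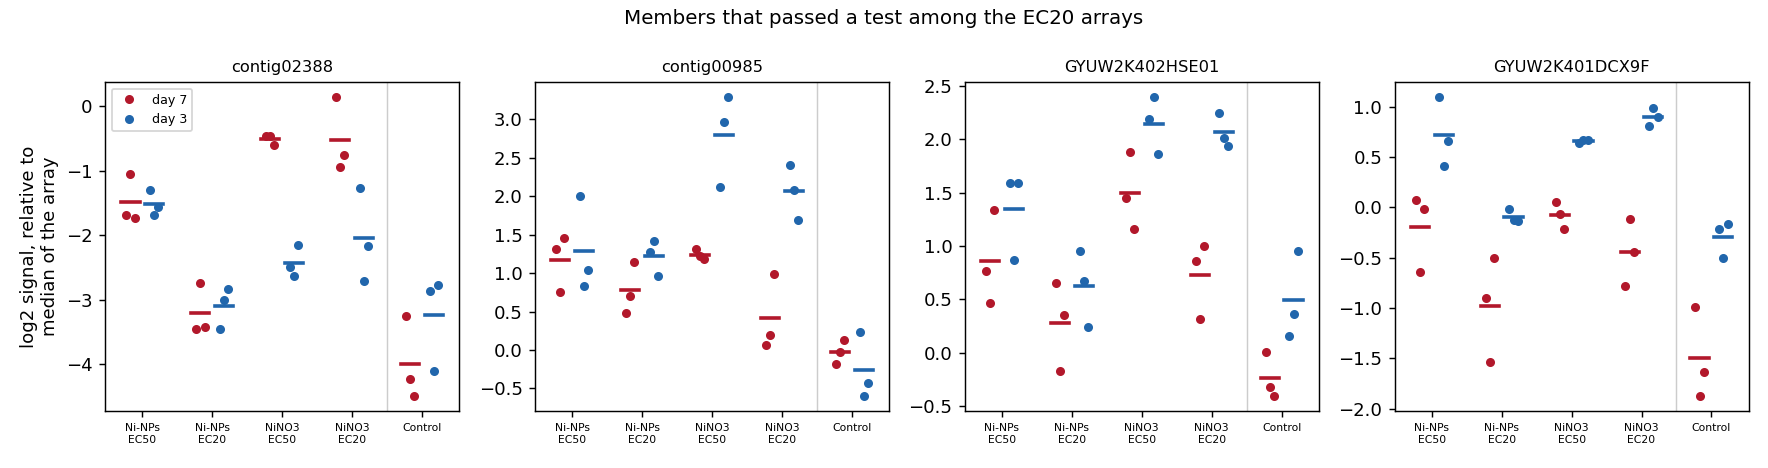
Log2 signal relative to the median of the array (vertical axis) of the 4 members that passed a test among the EC20 arrays, in the treatments and the control (horizontal axis), with 1 point per array, a line at the mean of 3 arrays, day 7 in red and day 3 in blue. In contig02388 the Ni-NPs EC20 points of day 7 lie at -2.74 or lower and those of NiNO3 EC20 at -0.94 or higher, and in the other 3 the NiNO3 EC20 points of day 7 lie below those of day 3.

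Between the forms at EC50, where the choice fixed both to be high, the median difference between Ni-NPs and NiNO3 over the members was -0.32 at day 3 and -0.18 at day 7. The largest differences towards Ni-NPs, as means of both days, were those of contig15334 (0.45), contig19147 (0.41) and contig05082 (0.31). The largest towards NiNO3 were those of GYUW2K402FYARD (-0.83), contig00985 (-0.78) and GYUW2K402HSE01 (-0.72). In contig15334 the 6 Ni-NPs EC50 arrays ran from 2.12 to 3.27 and the 6 NiNO3 EC50 arrays from 1.82 to 2.59, so they overlapped. In contig00985 the day 3 arrays were at 2.00, 0.83 and 1.03 in Ni-NPs EC50 and at 2.12, 2.96 and 3.28 in NiNO3 EC50, and the day 7 arrays overlapped.

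Between the days, among the 81 members with controls well above background on at least 1 array of each day, the EC50 difference from the control exceeded that of day 3 most at day 7, as a mean of both forms, in GYUW2K401BYI0P (1.10). For GYUW2K402JE6WU, with no control array of day 7 well above background, the excess was at least 0.29. For contig02388, as dim in that control, it was 0.45 with the control of day 7 at its bound. This is not a minimum, since its control of day 3 was dim too. The mean there was -3.24, against -2.97 for the lowest signals well above background on those arrays. Among the 81 the difference was below that of day 3 most in GYUW2K401CTM6K (-1.38), GYUW2K402HVE38 (-1.26) and contig05081 (-1.11). The first pair of these are the near-identical scattered probes. In contig05081, 1 control array of day 7 was at -0.74, while the other 2 of that day were at -2.47 and -2.75 and those of day 3 between -2.79 and -2.20.

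Between the concentrations, EC50 minus EC20 had a median of 0.58 for Ni-NPs and 0.22 for NiNO3 at day 7, and of 0.27 and 0.40 at day 3. In the 49 members with separate controls, 48 were higher at EC50 than at EC20 with Ni-NPs at day 7 and 42 at day 3, and 45 and 36 with NiNO3. Of the 26 scattered members 22 were higher at EC50 with Ni-NPs at day 7 and none at day 3 (medians 0.25 and -0.79), and 3 and 25 with NiNO3 (medians -0.36 and 0.91). The EC50 arrays chose the members, so these are descriptions.

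Over the series, the number of probes with a signal both positive and significant ran between 29661 and 40433 per array, and 44.9% to 76.3% of probes were well above background. Of the members, 56 of 89 (62.9%) were well above background on all 30 arrays, against 69.0% of tested probes. The arrays lay on 10 slides and were scanned on 3 days.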

How the data were processed

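The deposited files held 1 array each, read with Agilent Feature Extraction 10.7.3.1 per the file headers. The deposited intensity values used here are the processed signals of that software, background-corrected within each array but not scaled between arrays. A value table of the same arrays, also deposited by the authors, differed from them by at most 0.0072 log2. Probes whose signal was both positive and significant on each of the 30 arrays were kept, log2 signals were centred on the median of each array, and all conditions were fitted together with limma 3.58.1 in R 4.3.3 (lmFit and eBayes, Benjamini-Hochberg adjustment over all 24653 probes, threshold 0.05). The fit was also run on simulated arrays with known changes, drawn independently of each other. The real arrays had a correlation within slides of 0.283, which the simulation did not hold. The replicates were biological, 3 per condition, and their number limits the precision.

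Members and lists were chosen with earlier results of these data known. Members were named by rank: the 12 with the highest mean EC50 difference, the 3 highest and 3 lowest at EC20, between forms and between days, those nearest to the limit of 0.8, those called among EC20 arrays, and the brightest and dimmest. At EC20 and between days, members with a control group not well above background were given with that group at its bound or left out. The lists of near-identical, dim and fully separate members fall outside these ranks. Alternatives covered scaling (quantile, 75th percentile, the study's SVCD normalization), background, filters, the value table, replicate, slide and scan day as blocks, fits to the compared conditions only, the methods' t-test, and single arrays left out. The files used here hold no mean signal column, so normexp was run on the median signal, a choice made after seeing the data, as were the leaving out of both high control arrays and the use of the highest control array or of the median of 3 arrays.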

Additional observations from a re-analysis of the deposited data

Results flagged for a closer look

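Contig18372, a scattered member, was 1.76 higher (log2) in Ni-NPs EC20 than in NiNO3 EC20 at day 3. It drew attention because every Ni-NPs EC20 array (-2.26, -1.37 and 0.08) was above the mean of the control arrays of the day and every NiNO3 EC20 array (-2.72, -3.35 and -2.74) below it. The control arrays were at -2.07, -3.55 and -1.27, and the opposite directions were not tested. Limma did not call the difference between the forms (smallest limma adjusted p of any member at day 3 = 0.265).

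Contig02388 was -2.68 (log2) in Ni-NPs EC20 minus NiNO3 EC20 at day 7. It drew attention because the difference between the forms passed the test itself (limma adjusted p = 0.00674), with 1 of the 3 Ni-NPs arrays well above background.

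GYUW2K402F9E4K differed by -0.93 (log2) between Ni-NPs EC20 and NiNO3 EC20 at day 7. Its Ni-NPs EC20 arrays, at 0.29, 0.66 and 0.75, were below the mean of the control arrays of the day, and its NiNO3 EC20 arrays, at 1.57, 1.05 and 1.87, above it. The control arrays were at 0.66, 0.75 and 0.97, within reach of the Ni-NPs arrays, and the opposite directions were not tested. Limma did not call the difference between the forms, since contig02388 was the only member called at day 7.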

How the results depend on the processing

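The choice of members depended on the processing. The 89 became 155 with SVCD normalization, 19 with normexp on the median signal, 50 among probes well above background on all arrays, 212 with no filter on dim probes, 176 without both high control arrays and 23 against the highest control array. With 1 array left out it ran from 70, without control replicate 3 of day 7, to 133, without control replicate 2 of day 7.

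The counts of members raised against the control were 5 and 2 for Ni-NPs EC20 at days 3 and 7 and 27 and 25 for NiNO3 EC20. For Ni-NPs EC20 at day 3 the count was 11 with quantile normalization, 19 with SVCD, 3 with normexp, 11 with the stricter filter, 16 with slide as a random block and 21 without both high control arrays, and 4 to 17 with 1 array left out. At day 7 it was 1 with SVCD, the 75th percentile, the stricter filter, no filter or scan day as a block, 0 with normexp and without both high control arrays, and 0 to 4 with 1 array left out. For NiNO3 EC20 normexp gave 10 at day 3 and 9 at day 7, no filter 13 and 10, and leaving out 1 array 14 to 26 and 17 to 24. In fits to the compared conditions only, the count was 6 for NiNO3 EC20 at day 3 and 0 in the other 3, and the methods' t-test gave 0 in all. With normexp, which used an offset and the median signal, the member medians were 0.65 for Ni-NPs EC20 and 0.60 for NiNO3 EC20 at day 3. At day 7 they were 0.35 and 0.72. At EC50 they were 0.68 for Ni-NPs and 0.92 for NiNO3 at day 3, and 0.74 and 0.68 at day 7, against 1.36, 1.67, 1.32 and 1.49. The cause of these changes was not tested.

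Between the forms, the 1 call at day 7 became 3 with quantile normalization, 2 with SVCD, 0 with normexp, 4 with the stricter filter, where contig02388 was not tested, and 5 with scan day as a block. It ran from 1 to 6 with 1 array left out, with 6 without Ni-NPs EC20 replicate 3 and 2 without NiNO3 EC20 replicate 1. The 0 calls at day 3 ran from 0 to 3. Between the days, the 3 calls for NiNO3 EC20 became 7 with SVCD, 1 with normexp and 0 with no filter, and ran from 0 to 9 with 1 array left out, and the 0 calls for Ni-NPs EC20 ran from 0 to 1. Fits to the compared conditions only and the methods' t-test gave 0 calls in these comparisons.

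Deviations of same-numbered arrays correlated at -0.356 to 0.681, with 12 of 24 over 0.1, so equal replicate numbers did not pair the samples throughout. Between the forms at EC20 and day 7 the correlation was 0.461, -0.334 and 0.681 for replicates 1, 2 and 3. The 2 arrays of replicate 1 shared a scan day, as did those of replicate 3, and those of replicate 2 did not. With a replicate block the count was 10 for Ni-NPs EC20 at day 3 and 2 between the forms at day 7. Dim spots limit the folds of the 8 members whose control arrays were not well above background.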
